A study of Mus musculus with 7 samples.

Results

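Wnt signalling in fibroblasts is held in check at the cell surface by secreted proteins and the receptors some of them use, and 9 genes of these kinds were followed here. They were chosen by symbol: the Dickkopf genes Dkk1, Dkk2 and Dkk3, the Dickkopf receptor genes Kremen1 and Kremen2, the secreted frizzled-related protein genes Sfrp1, Sfrp2 and Frzb, and Wif1, which encodes Wnt inhibitory factor. Each of the 9 genes had 1 probe set with its single symbol, among 19937 genes measured in this way, and all 9 passed the filter on low signals. RNA of embryonic mouse fibroblasts that had become immortal spontaneously was hybridised to 7 Affymetrix arrays that cover whole transcripts. The tested groups were 2 clones with knockout of Tnc, the gene of the matrix glycoprotein tenascin-C, and 2 clones of wild-type fibroblasts stably transfected with a hairpin RNA directed at Tnc, named knockdown below. Both were set against 3 wild-type clones. All clones received no treatment and spent 2 days in medium with fetal calf serum before RNA was taken. Each array is 1 clone, the labels do not tell whether the clones within a group have different animals of origin, and no cells with a control hairpin were analysed. The p-values therefore measure only the spread between these clones, and the knockdown cannot be told apart from the effects of carrying a hairpin.

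Wnt proteins bind a frizzled receptor together with the co-receptor LRP5 or LRP6, which keeps beta-catenin from being degraded and lets it activate genes with TCF and LEF factors. Dickkopf proteins bind LRP5 and LRP6, and Kremen proteins, which bind Dickkopfs, help to take the co-receptor off the cell surface. Secreted frizzled-related proteins and Wif1 instead bind the Wnt proteins themselves. Dkk1 is a strong antagonist, Dkk2 can act as an antagonist or a weak agonist depending on the cell, and Dkk3 is a divergent member that binds LRP6 poorly. Frzb is known for its role in cartilage, and Dkk1, in several cell types, is itself switched on by Wnt signalling.

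The promoters of Dkk1 and Dkk2 are shown because these close relatives read differently. Dkk2 was lower on every tenascin-C deficient array, though limma did not call it, and the deficient arrays of 7.7% of all genes likewise did not overlap wild type. Dkk1 was not lower on every deficient array, but it was below the array median on all arrays, so a fall could hardly be seen. Whether the promoters play a part was not tested. The sequences are RefSeq's for build GRCm38.p6 and run 5′ to 3′ on the gene's own strand. Each goes from 250 bases before to 50 bases after the start used for that window. They carry in capitals each CTTTG on either strand (so also CAAAG), the core of TCF and LEF sites. The Dkk1 window is chr19:30549447-30549746, minus strand, and the Dkk2 window is chr3:132085042-132085341, plus strand. For Dkk1 the start used is the listed boundary of the gene. The Dkk2 gene is listed from 132085266, upstream of the start its window uses, so Dkk2 positions would differ if counted from there.
Dkk1: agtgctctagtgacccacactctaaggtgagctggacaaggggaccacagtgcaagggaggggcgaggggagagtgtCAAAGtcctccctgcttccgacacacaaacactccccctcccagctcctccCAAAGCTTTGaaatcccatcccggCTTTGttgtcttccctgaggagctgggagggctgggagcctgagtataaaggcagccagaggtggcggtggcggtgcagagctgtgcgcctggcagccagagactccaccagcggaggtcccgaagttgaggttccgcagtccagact
Dkk2: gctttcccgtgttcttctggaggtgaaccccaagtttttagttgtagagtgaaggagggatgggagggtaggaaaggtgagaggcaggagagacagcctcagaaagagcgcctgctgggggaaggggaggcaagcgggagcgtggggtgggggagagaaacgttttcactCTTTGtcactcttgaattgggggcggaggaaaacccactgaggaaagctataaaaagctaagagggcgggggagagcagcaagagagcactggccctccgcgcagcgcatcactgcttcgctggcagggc
Positions count the start used for each window as +1 and the base before it as -1. The Dkk1 window holds 4 cores, which begin at -173, -122, -117 and -98, and the Dkk2 window holds 1, at -80. A TATAAA begins at -54 in Dkk1 and at -32 in Dkk2, while GGGCGG, the letters of a GC box, begins at -60 and -17 in Dkk2 and is not in the Dkk1 window. Searched on both strands, with no overlap between these matches, CTTTG was in 53.9% of 32851 promoter windows of the same length, TATAAA in 13.6% and GGGCGG in 35.7%. The table held windows for 6 of the 9 genes; of the other 4 that matched, Frzb had 1 CTTTG, at -94, Wif1 had 1, at -161, and Kremen2 and Sfrp2 had none. A match here is a run of letters, not a shown binding site.

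Facts of the arrays that touch the results come first. The values are log2 signals, so a difference of 1 is a doubling of signal, and the array medians lay between 5.38 and 5.49. Tnc itself read 8.05 and 8.51 in knockout clones and 7.34 and 6.52 in knockdown clones, against 10.89, 11.42 and 11.38 in wild-type clones. It passed limma's test in both deficient groups, with a difference of -2.95 ± 0.30 (SE, adjusted p = 0.042) in knockout cells and of -4.30 ± 0.30 (adjusted p = 0.0339) in knockdown cells; where its probes lie relative to the deleted part was not analysed here. Sex-linked genes set apart array 2 of both deficient groups: Xist had 8.80 on knockout array 2 and 3.51 to 3.77 elsewhere, and Y-linked Eif2s3y, Kdm5d and Uty had 3.14 to 4.14 on knockout array 2 and 4.86 to 5.46 on knockdown array 2, while the remaining 5 arrays had 6.06 to 8.78. Knockout clone 2 thus had the pattern of female cells and knockout clone 1 that of male cells. Knockdown clone 2 matched neither, with low Xist (3.74) and intermediate Y-linked signals. Whether the knockout clones came from different animals was not tested. The values of the 9 genes were therefore also computed without array 2 of both deficient groups. None of the 12 fibroblast markers was below the array median on all arrays. Fap, though, exceeded it only on knockdown array 1 (5.69) and read 3.17 to 4.55 on the other arrays. Lum was below it on knockout array 2 (4.17) and wild-type array 1 (5.06). Of the fibroblast markers, 6 were higher and 6 lower in knockout (5 and 2 with an unadjusted limma p under 0.05). In knockdown 9 were higher and 3 lower (2 and 0), and limma called 0 in either. Beside these, 12.8% of all genes in knockout and 14.1% in knockdown had such a p. Knockout differences were -1.42 for Pdgfra and -1.25 for Twist2, against 1.36 for Col3a1 and 0.69 for Col1a1. Smooth muscle markers were also present, with 1 of 6 (Des) below the median on all arrays and Acta2 at 12.14 to 12.99. Of the markers of the remaining cell types, 5 of 6 endothelial genes, 4 of 5 macrophage and blood genes and 6 of 9 cartilage and bone genes were below the median on all arrays, as were 3 of 6 epithelial genes (Epcam, Cdh1 and Krt18). The epithelial keratin gene Krt19 read 8.45 and 4.87 in knockout and 6.06 and 5.67 in knockdown, against 8.22, 8.25 and 8.51 in wild type, a knockdown difference of -2.46 that limma did not call (adjusted p = 0.332). Signals were also summed over a list before taking log2, so that the highest genes weigh most. For the epithelial list, led by Krt19, this gave 7.90 to 9.12 in knockout and 8.0 to 8.21 in knockdown, against 8.93 to 9.20 in wild type. For cartilage and bone, led by Sox9, it gave 9.40 to 9.50 in knockout and 9.67 to 9.74 in knockdown, against 9.64 to 9.82 in wild type. The part of these markers in the results below was not tested.

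Dkk2 was the only one of the 9 genes whose 4 deficient arrays all lay on one side of the 3 wild-type arrays. Its log2 signal was 5.67 and 5.30 on the knockout arrays and 5.30 and 5.25 on the knockdown arrays, against 6.63, 6.45 and 6.43 on the wild-type arrays. The highest deficient array thus stood below the lowest wild-type array, and 3 of the 4 deficient arrays lay below the array median, which all 3 wild-type arrays exceeded. Signals this low limit how far the size of the fall, and the closeness of knockout and knockdown, can be read. Dkk2 averaged 5.49 ± 0.26 in knockout clones (SD, n = 2) and 5.27 ± 0.04 in knockdown clones (SD, n = 2), against 6.50 ± 0.11 in wild-type clones (SD, n = 3). The difference was -1.02 ± 0.13 in knockout (SE, a 2.03-fold lower signal, 95% interval -1.33 to -0.70) and -1.23 ± 0.13 in knockdown (2.35-fold lower, -1.55 to -0.91). Both comparisons use the same wild-type arrays. Neither passed an adjusted p of 0.05 over the 16801 genes tested by limma with Benjamini-Hochberg adjustment, at 0.0668 in knockout and 0.0928 in knockdown, and the mean of both deficient groups against wild type gave -1.12 ± 0.11 with 0.0876. Knockout and knockdown did not differ beyond their spread (0.21 ± 0.14, interval -0.13 to 0.56, limma adjusted p = 0.458), and that difference was 0.02 without knockout array 1 and 0.40 without knockout array 2. Without knockout array 2 and knockdown array 2, the knockout difference was -0.83 and the knockdown difference -1.21. In bulk RNA, fewer cells that express a gene and less RNA per cell cannot be told apart.

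Dkk1 showed no such step. Its signal was 5.26 and 5.19 in knockout and 5.21 on both knockdown arrays, against 5.21, 5.02 and 5.30 in wild type. All were below the array median, where a fall could hardly be seen. The wild-type clones alone spanned the whole range of Dkk1, 0.28 on the log2 scale. The differences were 0.05 ± 0.10 in knockout (95% interval -0.20 to 0.29, limma adjusted p = 0.868) and 0.03 ± 0.10 in knockdown (-0.21 to 0.28, adjusted p = 0.91).

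**Figure D1:**
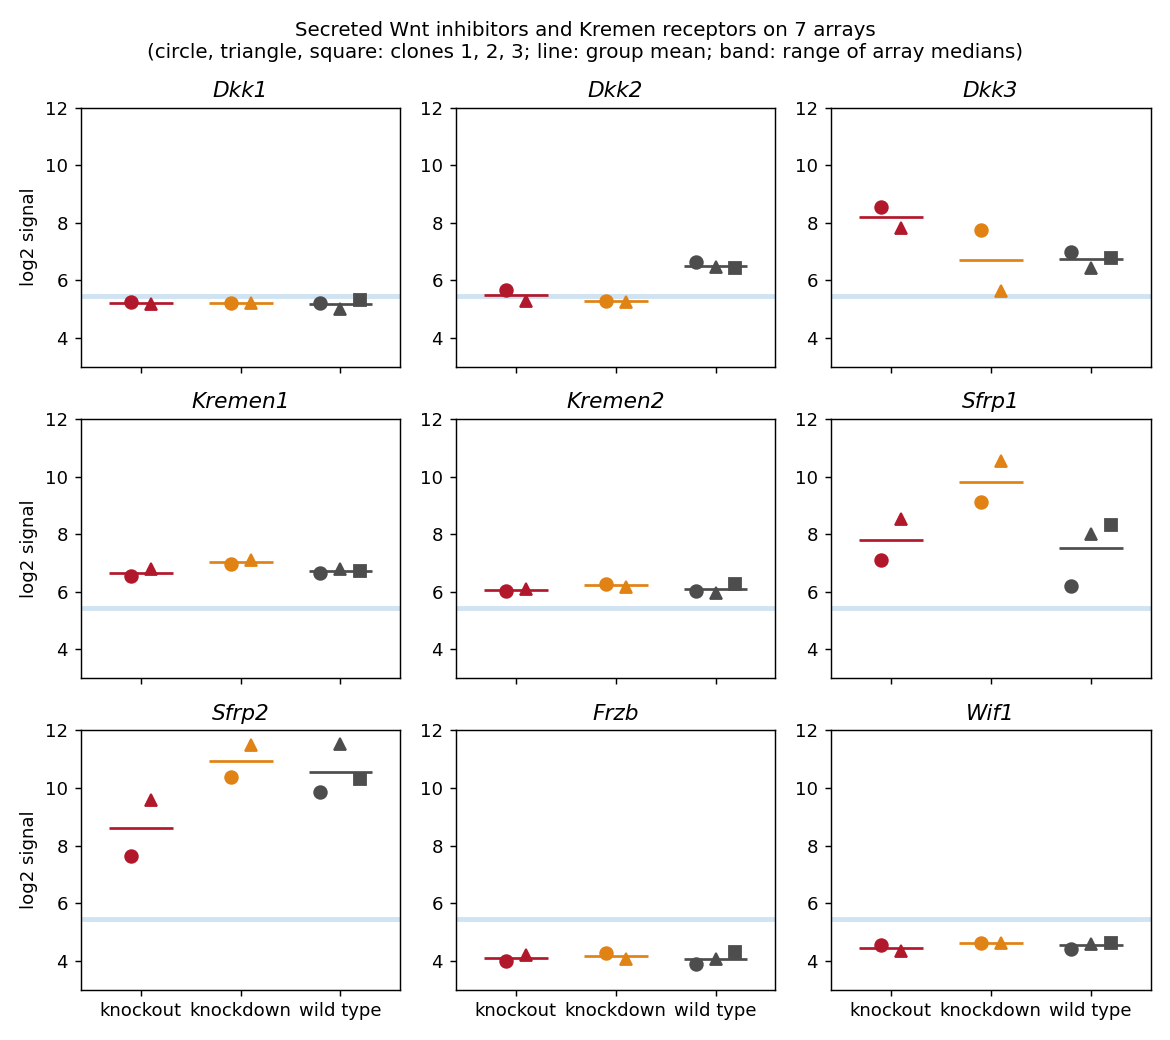
Log2 signal (y axis) of each of the 9 genes in knockout, knockdown and wild-type clones (x axis). Each point is 1 array, with its shape giving the clone number, lines are group means and the band is the range of array medians. Dkk2 stands at 5.25 to 5.67 in the 4 deficient clones and at 6.43 to 6.63 in the wild-type clones, while Sfrp1, Sfrp2 and Dkk3 are spread widely within groups.

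Dkk3, the divergent Dickkopf, which is studied mainly as a secreted growth suppressor, was higher in both knockout clones and split the knockdown clones. It stood at 8.56 and 7.82 in knockout and at 7.75 and 5.63 in knockdown, against 6.97, 6.44 and 6.78 in wild type. Both knockout arrays lay above all wild-type arrays, but the knockdown arrays lay on either side of them. The knockout difference was 1.45 ± 0.61 (2.74-fold, 95% interval -0.03 to 2.94, limma adjusted p = 0.397) and the knockdown difference -0.04 ± 0.61 (adjusted p = 0.989). The knockdown value depended on both of its arrays, and was 1.02 without knockdown array 2 and -1.10 without knockdown array 1. Without knockout array 2 and knockdown array 2, the knockout difference was 1.82. The log2 of the signals summed over 6 smooth muscle markers, led by Acta2 and Tagln, was likewise highest in knockout, at 13.55 to 13.70, against 12.93 to 13.00 in knockdown and 12.72 to 13.49 in wild type. None of these markers was called by limma in any comparison, Des was below the median on all arrays, and the part of these markers in the Dkk3 result was not tested.

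The receptors of the Dickkopfs varied little. Kremen1 had signals of 6.54 and 6.78 in knockout and 6.98 and 7.10 in knockdown, against 6.66, 6.79 and 6.74 in wild type. The knockdown arrays lay above the wild-type arrays and the knockout arrays, by a difference of 0.31 ± 0.10 from wild type (95% interval 0.06 to 0.55, limma adjusted p = 0.275). Knockout differed from wild type by -0.08 ± 0.10 (adjusted p = 0.769) and from knockdown by -0.38 ± 0.11 (adjusted p = 0.176). Kremen2 had 6.04 and 6.08 in knockout and 6.28 and 6.17 in knockdown, within the wild-type arrays' span of 5.96 to 6.28. Its differences from wild type were -0.03 ± 0.11 in knockout (limma adjusted p = 0.927) and 0.13 ± 0.11 in knockdown (adjusted p = 0.643).

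The secreted frizzled-related proteins Sfrp1 and Sfrp2, which carry a frizzled-like domain that binds Wnts, varied most. Sfrp1 had 7.09 and 8.52 in knockout and 9.10 and 10.53 in knockdown, against 6.20, 8.02 and 8.31 in wild type, a span of 4.33 over all arrays. The knockdown arrays lay above all others, while the knockout arrays overlapped the wild-type arrays. Sfrp1 averaged 7.81 ± 1.01 across knockout clones (SD, n = 2) and 9.82 ± 1.01 across knockdown clones (SD, n = 2), against 7.51 ± 1.15 in wild type (SD, n = 3). The knockdown difference was 2.31 ± 0.80 (4.95-fold, 95% interval 0.35 to 4.27, limma adjusted p = 0.294), and became 3.02 without knockdown array 1 and 1.59 without knockdown array 2. The knockout difference was 0.29 ± 0.80 (limma adjusted p = 0.899) and turned to -0.42 without knockout array 2.

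Sfrp2 was lowest in the knockout clones. It had 7.64 and 9.59 in knockout and 10.38 and 11.50 in knockdown, against 9.88, 11.53 and 10.31 in wild type. Both knockout arrays lay below all other arrays, and the knockdown arrays lay within the wild-type range. The group means were 8.61 ± 1.38 for knockout clones (SD, n = 2) and 10.94 ± 0.79 for knockdown clones (SD, n = 2), against 10.57 ± 0.85 in wild type (SD, n = 3). The knockout difference was -1.96 ± 0.74 (3.88-fold lower, 95% interval -3.77 to -0.15, limma adjusted p = 0.363), and was -0.98 without knockout array 1 and -2.93 without knockout array 2. Knockout stood 2.33 ± 0.81 below knockdown, which the limma test did not call (adjusted p = 0.232), and the difference was -1.35 without knockout array 1 and -3.30 without knockout array 2. The knockdown difference from wild type was 0.37 ± 0.74 (limma adjusted p = 0.869), and was 0.92 without knockdown array 1 and -0.19 without knockdown array 2.

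**Figure D2:**
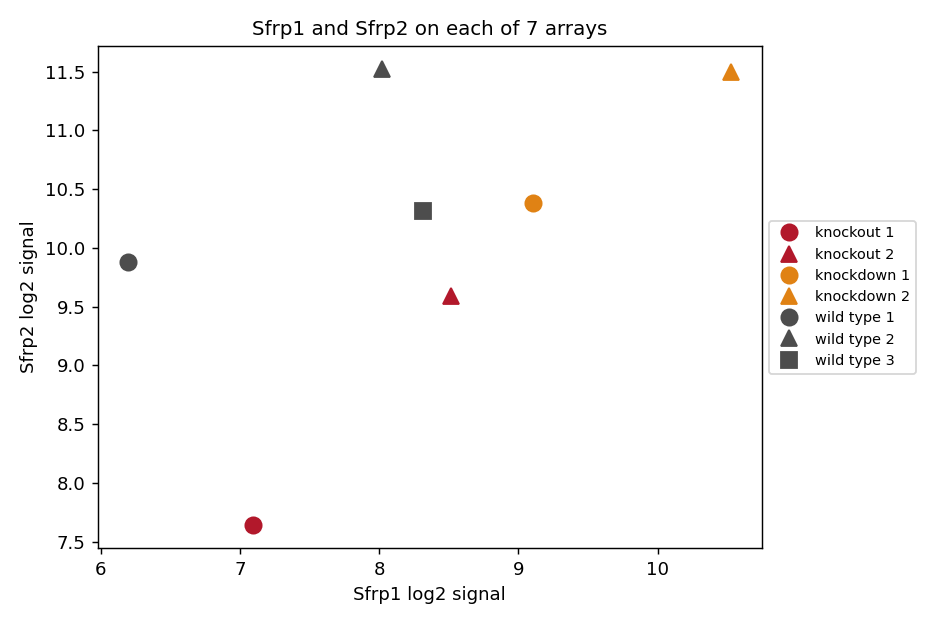
Sfrp1 log2 signal (x axis) against Sfrp2 log2 signal (y axis), 1 point per array, coloured by group and shaped by clone number. Clone 1 of each group is its lowest clone for both genes, and the clones of a group differ by 1.42 for Sfrp1 in knockout and in knockdown and by 1.95 and 1.11 for Sfrp2.

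Clones of a group differed more in Sfrp1, Sfrp2 and Dkk3 than in nearly all other genes. The within-group standard deviation, pooled over the 3 groups, was 1.08 for Sfrp1, 0.997 for Sfrp2 and 0.816 for Dkk3 on the log2 scale, against a median of 0.140 over all tested genes, and 99.6%, 99.4% and 99.0% of tested genes had a smaller one. The other 6 genes lay between 0.104 for Dkk1 and 0.186 for Frzb, with Dkk2 at 0.153. In every group the clone lowest for Sfrp1 was also the lowest for Sfrp2, and it was clone 1 each time. Rspo3, another Wnt pathway gene, was also lowest in clone 1 of each group. The share of all genes with this order was not counted. Numbers in the labels name clones and do not say that clones with the same number are related.

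Frzb and Wif1, which bind Wnt proteins outside the cell, had low signals in all clones. Frzb had 3.98 and 4.21 in knockout and 4.26 and 4.05 in knockdown, against 3.88, 4.06 and 4.30 in wild type. It was below the array median on all arrays and above the 25th percentile used as a filter on 5. Its differences were 0.01 ± 0.15 in knockout (limma adjusted p = 0.979) and 0.08 ± 0.15 in knockdown (adjusted p = 0.865). Wif1 had 4.54 and 4.33 in knockout and 4.62 and 4.61 in knockdown, against 4.41, 4.58 and 4.64 in wild type, and differed by -0.11 ± 0.10 in knockout (limma adjusted p = 0.674) and 0.07 ± 0.10 in knockdown (adjusted p = 0.806).

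Counted together, 0 of the 9 genes were called in any of the 4 comparisons by limma at an adjusted p under 0.05, where 0.167% of all tested genes were called in knockout against wild type, 0.0179% in knockdown against wild type, 0.0298% in the mean of both deficient groups against wild type and 0.375% in knockout against knockdown. At an unadjusted p under 0.05, knockout against wild type held 2 of the 9 genes (Dkk2 and Sfrp2), beside 12.8% of all genes, and knockdown against wild type 3 (Dkk2, Kremen1 and Sfrp1), beside 14.1%. The mean of both groups held 1 (Dkk2), beside 12.3%, and knockout against knockdown 2 (Kremen1 and Sfrp2), beside 17.9%. Arrays of the groups did not overlap for 3 genes in knockout against wild type (Dkk3 higher, Dkk2 and Sfrp2 lower), beside 28.5% of all genes, and for 3 in knockdown against wild type (Kremen1 and Sfrp1 higher, Dkk2 lower), beside 30.5%. For all deficient arrays against wild type it was 1 gene (Dkk2), beside 7.7%, and for knockout against knockdown 6 (Dkk3 higher; Kremen1, Kremen2, Sfrp1, Sfrp2 and Wif1 lower), beside 45%. The median difference of the 9 genes was -0.03 in knockout and 0.08 in knockdown, where all tested genes had -0.03 and 0.03.

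**Figure D3:**
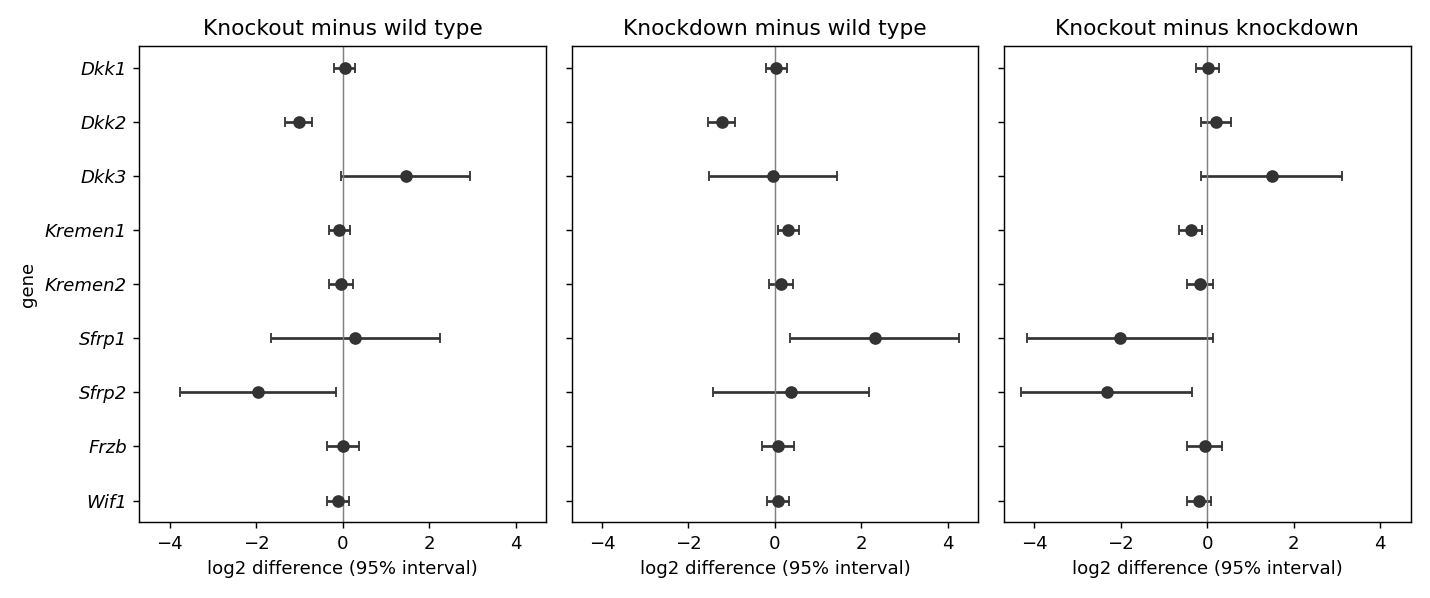
Log2 difference (x axis) of the 9 genes (y axis) for knockout minus wild type, knockdown minus wild type and knockout minus knockdown. Points are limma estimates and bars their 95% intervals. The interval of Dkk2 lies wholly below 0 in both comparisons with wild type, and those of Sfrp1, Sfrp2 and Dkk3 are several times wider than the others.

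Genes with the most similar profile over the 7 arrays were found by the smallest mean absolute difference between profiles centred on their own mean, for the 4 genes that ranged over at least 1. They are listed as a description. For Dkk2 they were B4galnt4 (0.169), Mpp6 (0.174) and Gbe1 (0.191). Mpp6 read 8.28 and 7.71 in knockout and 7.98 and 7.58 in knockdown, against 9.26, 8.58 and 8.72 in wild type. For Dkk3 they were Ctla2b (0.310), Igfbp6 (0.350) and Gsto2 (0.353). The genes closest to Sfrp1 were Nsg1 (0.283), Foxd1 (0.399) and Tnfaip6 (0.472), and those closest to Sfrp2 were Mme (0.295), Vegfc (0.459) and Igsf10 (0.465). Mme, which encodes the peptidase neprilysin, read 6.26 and 8.70 in knockout and 8.83 and 9.91 in knockdown, against 8.54, 9.51 and 8.24 in wild type.

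The rest of the pathway was read from 6 lists, none of whose genes was called by limma in any comparison. For reading the counts that follow, 42.8% of all tested genes were higher and 57.1% lower in knockout, and 57% higher and 42.9% lower in knockdown. An unadjusted p under 0.05 was reached by 7.33% of all genes as higher and 5.5% as lower in knockout, and by 7.12% and 6.99% in knockdown. Among 16 receptors and co-receptors, 10 were higher and 6 lower in knockout (5 and 0 of these with an unadjusted p under 0.05), and 13 were higher and 3 lower in knockdown (3 and 0). Their median difference was 0.16 in knockout and 0.26 in knockdown. The frizzled receptor gene Fzd2 read 8.38 and 8.23 in knockout and 8.60 and 8.68 in knockdown, against 7.93, 8.02 and 7.92 in wild type. Its differences were 0.35 (limma adjusted p = 0.182) in knockout and 0.68 (adjusted p = 0.1) in knockdown. Fzd8, another frizzled gene, read 8.13 and 8.09 in knockout and 8.63 and 8.71 in knockdown, against 7.42, 7.87 and 7.70 in wild type, with 0.45 (limma adjusted p = 0.269) and 1.01 (adjusted p = 0.11). For both receptors all 4 deficient arrays lay above all wild-type arrays, as they did for Fzd7, Lrp5 and Ptk7 of this list. Over all tested genes, the deficient arrays of 7.7% did not overlap wild type. Fzd2 and Fzd8 were named for their small p-values, a choice that favours such separation.

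The 21 genes of Wnt ligands and their export divided into 10 higher and 10 lower in knockout (2 and 0 at an unadjusted p under 0.05), with Wnt8a at the same value on all arrays, and 19 higher and 1 lower in knockdown (4 and 0). Of these 21 genes, 7 were below the array median on all arrays, which limits what their directions can show. The ligand genes Wnt6 and Wnt3 had 0.40 and 0.34 in knockdown (limma adjusted p = 0.192 each), and 0.00 and 0.15 in knockout. Wnt3 was among those 7. Of 12 other extracellular antagonists, 5 were higher and 7 lower in knockout and 9 higher and 3 lower in knockdown, with 0 past an unadjusted p of 0.05 in either by limma. Notum, a secreted enzyme that inactivates Wnt proteins, differed by -0.44 in knockout and 0.32 in knockdown, and Dkkl1, a Dickkopf-like gene, by 0.01 and 0.30. Dkkl1 was among 6 of these antagonists below the array median on all arrays, and read 4.32 and 4.84 on the knockdown arrays.

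In the R-spondin axis, which keeps Wnt receptors at the cell surface, 6 of 9 genes were higher in knockout and 8 of 9 in knockdown, with 0 and 1 past an unadjusted p of 0.05 by limma. That 1 was the ubiquitin ligase gene Znrf3, which removes frizzled receptors, at -0.34 (limma adjusted p = 0.206) in knockdown and 0.11 in knockout. Lgr4, an R-spondin receptor gene, differed by 0.58 in knockout (limma adjusted p = 0.642) and 0.94 in knockdown (adjusted p = 0.466). It read 8.21 and 7.59 in knockout and 8.06 and 8.46 in knockdown, against 6.71, 8.31 and 6.93 in wild type, so the wild-type clones were widely spread. Of 18 intracellular genes, 17 were tested, and 11 were higher and 6 lower in knockout (3 and 2 at an unadjusted p under 0.05) and 9 higher and 8 lower in knockdown (2 and 1). Dvl1, which relays the frizzled signal, differed by -0.01 in knockout and -0.44 in knockdown (limma adjusted p = 0.188), and the transcription factor gene Lef1 had a knockout difference of 0.71 (adjusted p = 0.202) and a knockdown difference of -0.12.

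Of 12 feedback and target genes, 10 were higher and 2 lower in knockout (3 and 0 at an unadjusted p under 0.05) and 8 higher and 4 lower in knockdown (0 and 1). Ccn4, also called WISP1 and known as a Wnt-induced secreted gene, read 9.98 and 9.43 in knockout and 8.49 and 8.74 in knockdown, against 8.02, 8.62 and 8.22 in wild type. The knockout difference was 1.42 ± 0.23 (limma adjusted p = 0.097) and the knockdown difference 0.33 ± 0.23 (adjusted p = 0.587). Axin2, named after its values were seen, was 1 of the 2 genes lower in knockout. It read 5.91 and 5.53 in knockout and 5.93 and 5.99 in knockdown, against 6.02, 5.93 and 5.93 in wild type, a knockout difference of -0.24 (limma adjusted p = 0.470). The cell cycle gene Ccnd1 read 11.14 and 11.06 in knockout and 10.35 and 10.42 in knockdown, against 11.13, 10.88 and 10.82 in wild type, a difference of 0.16 in knockout and -0.56 in knockdown (limma adjusted p = 0.162). Between knockout and knockdown Ccnd1 differed by 0.71 (limma adjusted p = 0.0827).

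**Figure D4:**
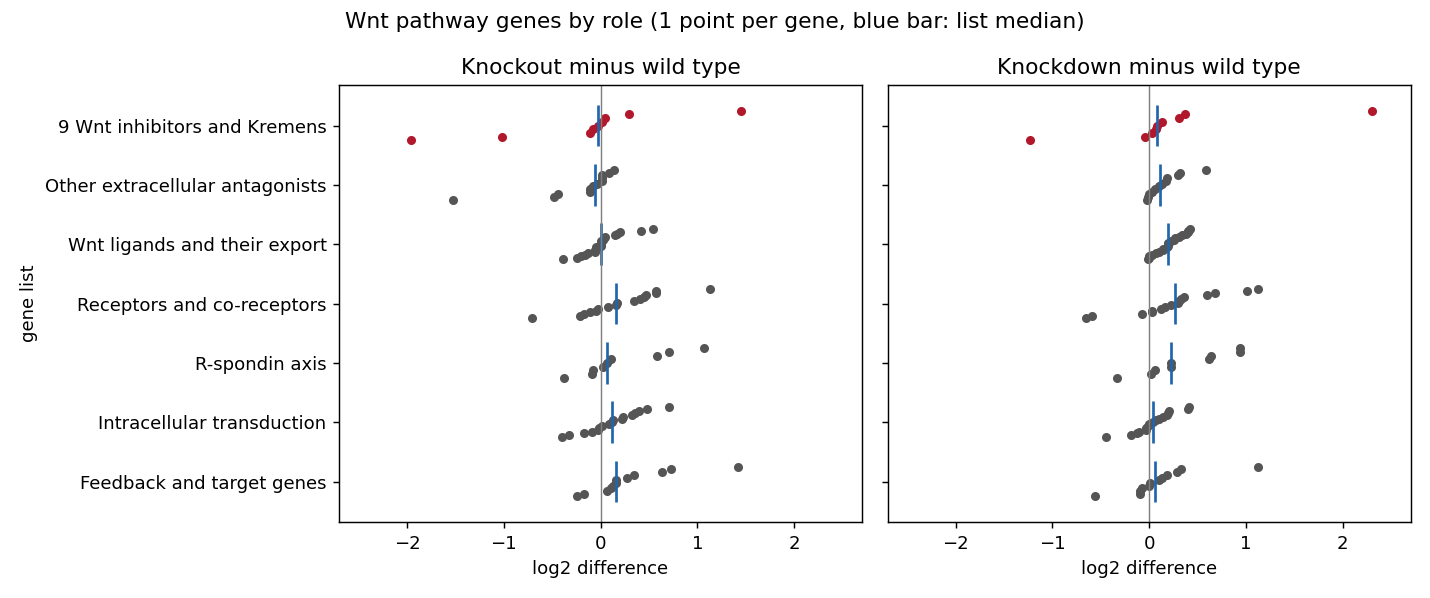
Log2 difference (x axis) of each gene of the Wnt pathway lists (y axis), for knockout minus wild type and knockdown minus wild type. Each point is 1 gene, the 9 inhibitor and Kremen genes are in red, and blue bars are list medians. The 9 genes hold the lowest and the highest points of both panels, with medians of -0.03 and 0.08 close to 0.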

How the data were processed

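The deposited table holds 1 column of log2 signals for each of 7 arrays, made by the authors; per the submitters' processing notes the affy package in R 2.8.0 was used, and how they were summarised, background-corrected and normalized is not stated in those notes or the labels. That these values are log2 was read from their range, 1.81 to 13.7. Of 34760 deposited probe sets, 21640 had a single symbol in the platform annotation and covered 19937 genes; where a gene had several, the one with the highest mean was used. The filter kept 16801 genes, those with 2 or more arrays above that array's 25th percentile.

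A model with a mean per group was fitted over the 7 arrays in R 4.3.3 using limma 3.58.1 (lmFit and eBayes, two-sided tests, 4 residual degrees of freedom, prior 2.06), and p-values were adjusted by Benjamini-Hochberg over all tested genes in each comparison. The fit was tested on simulated data with known changes. The number of arrays limits the precision. The members and gene lists were chosen with earlier results of these data known. Named by rule were the 9 genes, Tnc, the 2 genes of smallest p of each pathway list and the 3 nearest profiles. Alternatives were the filter, scaling, array weights, prior, probe set choice, a replicate block, and left-out arrays. The numbers were not taken to pair clones, because the labels do not say that same-numbered clones are related. Deviations of same-numbered clones correlated at -0.074 to 0.199. With 2 arrays in a deficient group these deviations mirror each other, so the correlations cannot decide on pairing.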

Additional observations from a re-analysis of the deposited data

How the results depend on the processing

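Across 591 values under alternatives, 549 kept their direction and side of the threshold, 37 turned direction, 5 newly passed and 0 ceased to pass; every one that turned was uncalled. In knockout, Dkk2 became the 1 called gene under the stricter filter (limma adjusted p = 0.0428) and the trended prior (0.0441). In the mean comparison Dkk2 was called under the stricter filter (0.0433), array weights (0.0453) and the trended prior (0.0336). The stricter filter tests 11968 genes and kept 6 of the 9. Dkk2 passes it through knockout array 1 and the wild-type arrays, where it is higher. Calls under that filter are therefore no separate support. The cause of the other calls was not tested. Over all alternatives Dkk2 ranged from -1.21 to -0.83 in knockout (adjusted p 0.0428 to 0.216) and -1.27 to -1.17 in knockdown (0.0734 to 0.310). With the replicate block Dkk2 was -1.05 (adjusted p = 0.216) and -1.27 (0.286), and 0 of the 9 genes were called.

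Without 1 array at a time, directions turned within these ranges: Dkk1 -0.0324 to 0.109 (knockout), -0.0447 to 0.0965 (knockdown), -0.0386 to 0.103 (mean) and -0.0184 to 0.0429 (knockout against knockdown); Dkk3 -1.10 to 1.02 (knockdown). Frzb gave -0.0966 to 0.126 (knockout), -0.0291 to 0.189 (knockdown), -0.0552 to 0.158 (mean) and -0.174 to 0.0490 (knockout against knockdown). In knockout, Kremen1 gave -0.197 to 0.0448, Kremen2 -0.0994 to 0.0625 and Sfrp1 -0.417 to 1.01. In the mean comparison, Kremen2 gave -0.0175 to 0.144 and Wif1 -0.0866 to 0.0331, and in knockdown Sfrp2 gave -0.187 to 0.924. Array weights turned Dkk3 in knockdown to 0.0872, Sfrp2 in knockdown to -0.0540 and Kremen2 in knockout to 0.0307. Centring gave Kremen2 0.0151 in knockout and Frzb 0.0133 between knockout and knockdown, for which quantile normalization gave 1.4e-05. Wif1 in the mean comparison was 0.0013 under quantile normalization, 0.0268 with the block and 0.0362 without both deficient arrays numbered 2. Kremen2 in knockout was 0.0625 with the block. Without both deficient arrays numbered 2, values turned for Dkk3 (1.02) and Sfrp2 (-0.187) in knockdown and for Sfrp1 (-0.417) and Frzb (-0.0966) in knockout. The cause of these turns was not tested. Over all genes, calls ranged from 1 to 79 in knockout (28 reported), 0 to 3 in knockdown (3), 0 to 13 in the mean comparison (5) and 0 to 137 between knockout and knockdown (63). Low signals of Dkk1, Frzb and Wif1, and of Dkk2 on knockout array 2 and both knockdown arrays, limit what a difference can show.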

Other observations

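Among the R-spondin receptor genes, Lgr5, chosen after its values were seen, read 7.93 and 5.32 in knockout and 6.16 and 6.82 in knockdown, against 5.33, 6.16 and 5.18 in wild type. The knockout clones differed from each other more than the group means did. Equal values recurred across arrays: 8489 of 16801 tested genes (50.5%) had the same value on at least 2 arrays, and 28 had 1 value on all arrays. Dkk1 held the value 5.21 on 3 arrays, both knockdown arrays among them, and Dkk2 held 5.30 on knockout array 2 and knockdown array 1.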
